A study of Mus musculus with 8 samples.

Results

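The genes described here are the mouse zinc finger genes named Zfp with a number, in embryonic stem cells (ESCs) that express either wild-type BAZ2A or a BAZ2A without its TAM domain. Members were the genes with such a symbol on chromosomes 1 to 19 or X, Zfp42 and Zfp352 left out, whose mean over all 8 libraries was at least 0.1 RPKM (reads per kilobase of gene, scaled to the depth of the library). Of 372 numbered Zfp genes listed, 198 were members and 174 lay below the limit, 14 of them listed at 0 in every library. The members were 198 of the 9000 genes of the table at or above the same limit. The members were thus selected on their measured mean level over both groups, which is described and not tested, and 11 members passed through the BAZ2A dTAM mean alone and 3 through the BAZ2A wt mean alone. The members closest above the limit were Zfp326, Zfp52 and Zfp612, with mean levels of 0.102 RPKM each. The genes closest below it were Zfp120, Zfp27 and Zfp551, with 0.0962, 0.0958 and 0.0952 RPKM.

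All cells were of the E14 line, an established mouse ESC line, grown in N2B27 medium with LIF and 2i, which keeps ESCs in a ground state of pluripotency. Each of the 2 lines carried a Flag- and HA-tagged BAZ2A transgene, inserted with the PiggyBac transposase and made resistant to the siRNA, encoding wild-type BAZ2A (BAZ2A wt) or the protein lacking the TAM domain (BAZ2A dTAM), and each transgenic line was grown from a single cell. Both lines were transfected with siRNA against the endogenous Baz2a and collected 3 days later, so the comparison is between the transgenes, which were meant to replace the endogenous protein. There were 4 libraries per line. A difference between the lines and a difference between the clones cannot be told apart in this design, and the labels do not say whether the 4 libraries came from separate cultures, so p-values measure only the spread between these libraries.

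Between 6560887 and 8663099 reads per library fell on genes, and 63397 to 90661 of these on the members. Baz2a, counting the transgene together with any endogenous transcript that escaped the siRNA, was at 9.95 to 11.2 RPKM in BAZ2A wt and 17.05 to 18.9 RPKM in BAZ2A dTAM. The lines thus differed in Baz2a RNA level as well as in the TAM domain (log2 fold change 0.79). Effects of the level and of the domain cannot be told apart in this design. The 6 ESC markers summed to 80.1 to 82.5 RPKM in BAZ2A wt and 67.9 to 73.5 RPKM in BAZ2A dTAM. Of these Sox2, Klf4 and Esrrb fell, with log2 fold changes of -0.42, -0.39 and -0.20, and Pou5f1, Nanog and Tfcp2l1 did not pass, with -0.06, 0.02 and -0.03. The 4 fibroblast markers summed to at most 0.033 RPKM, with Col3a1 at 0. The 5 primitive endoderm markers summed to at most 0.060 RPKM. The 4 trophoblast markers summed to 0.400 to 0.452 RPKM in BAZ2A wt and 0.347 to 0.547 RPKM in BAZ2A dTAM, where Eomes fell by 0.26 on the log2 scale and Cdx2 was at 0.28 without passing, though it rose with voom, by 0.39. The 4 neural markers summed to 0.697 to 0.812 and 0.457 to 0.542 RPKM, where Nes fell by 0.75 and Tubb3 was at 0.18 and did not pass. The 8 markers of 2-cell-like cells, the Zscan4 and Tcstv genes, summed to 0.375 to 0.500 RPKM in BAZ2A wt and 2.34 to 2.54 RPKM in BAZ2A dTAM. Their part in the results below was not tested. In bulk libraries such as these, a change in the number of cells of a type and a change in RNA per cell cannot be told apart.

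Most numbered Zfp genes encode C2H2 zinc finger proteins, in which each finger holds a zinc ion and contacts a few bases of DNA. Many of them also carry a KRAB domain, which recruits the co-repressor TRIM28 and with it the histone methyltransferase SETDB1, HP1 proteins and DNA methylation. In ESCs this system is known for silencing endogenous retroviruses and for guarding the methylation of imprinted genes. KRAB zinc finger genes lie in clusters that arose by repeated duplication, so neighbours can be close copies of each other. Of the 197 members with a coding sequence in the annotation, 110 carried a KRAB A-box motif and 193 at least 1 C2H2 finger motif. The median was 11 fingers with the KRAB motif and 7 without it, and Zfp142 had the most with 36. Zfp264 had no coding sequence in the annotation.

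The promoters of the chromosome 4 cluster are shown first, because its 11 members all had a log2 fold change below 0 in BAZ2A dTAM and because the promoters given for 7 of them are close copies. RefSeq (GRCm38.p6) gave promoters, 300 bases around the gene start, for 166 of the 198 members and for 8 of these 11. Windows of 120 bases are printed 5′ to 3′ on the strand of the gene, with the shared letters ATTGGGCG, which hold an inverted CCAAT box, in capitals.
Zfp985, chr4:147553169-147553288, plus strand: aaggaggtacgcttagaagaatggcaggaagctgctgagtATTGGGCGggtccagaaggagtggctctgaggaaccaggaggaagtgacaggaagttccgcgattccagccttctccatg
Zfp988, chr4:147305518-147305637, plus strand: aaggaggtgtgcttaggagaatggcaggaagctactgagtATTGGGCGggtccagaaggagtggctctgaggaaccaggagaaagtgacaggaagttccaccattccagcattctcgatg
Zfp534, chr4:147702590-147702709, minus strand: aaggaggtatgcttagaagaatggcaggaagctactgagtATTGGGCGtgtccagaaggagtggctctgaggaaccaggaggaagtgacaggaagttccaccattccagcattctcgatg
Zfp981, chr4:146514785-146514904, plus strand: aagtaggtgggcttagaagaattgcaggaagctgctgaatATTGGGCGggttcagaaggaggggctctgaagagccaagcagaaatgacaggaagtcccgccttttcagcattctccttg
Zfp984, chr4:147809795-147809914, minus strand: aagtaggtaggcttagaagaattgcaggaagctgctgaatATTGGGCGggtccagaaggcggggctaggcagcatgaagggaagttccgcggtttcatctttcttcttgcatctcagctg

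The 8 windows, the other three being those of Zfp600, Zfp979 and Zfp982, were 65.0% to 97.5% identical to each other over 28 pairs, with a median of 85.8%, compared base by base with no gaps. That of Zfp984 was the least alike, at 65.0% to 68.3% identity to the other 7, which were 80.0% to 97.5% identical to each other. ATTGGGCG, searched on both strands and chosen after these promoters had been seen, was in the promoters of 8 of 8 cluster members with an entry. It was in 2 of the 158 other members with an entry, Zfp418 and Zfp526, and in 174 of all 27025 genes with an entry, or 0.644%. Within it, ATTGG is the CCAAT box read on the other strand. That box was in the promoters of 8 of 8 cluster members, of 56.6% of all members and of 41.1% of all genes. ATTGGGCG was also in 5 of the 136 numbered Zfp genes below the limit with an entry, or 3.68%: Zfp980 and Zfp987 of the same cluster, Zfp947 and Zfp994 of a chromosome 17 cluster, and Zfp185 on chromosome X, which rose with voom by 0.68 (adjusted p = 1.77e-05). Among the members called higher or lower by limma on RPKM with an entry, 33 and 11, none held ATTGGGCG. Zfp992, the cluster member called there, has no entry, and of the 6 cluster members that fell with voom, Zfp981, Zfp988, Zfp534 and Zfp984 held it. Zfp600, Zfp979, Zfp982 and Zfp985 held it too and did not pass with voom. Of all 18 genes with an entry inside the cluster's interval, 12 held it. A link between these letters and the changes was not tested.

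For contrast, the promoters of Zfp566 and Zfp428, the members with the largest log2 fold changes, are printed from 70 bases before to 50 bases after the gene start, with CG dinucleotides in capitals.
Zfp566, chr7:30090461-30090580, minus strand: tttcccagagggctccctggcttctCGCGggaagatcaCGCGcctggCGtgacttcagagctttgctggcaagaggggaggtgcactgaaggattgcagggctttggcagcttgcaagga
Zfp428, chr7:24507017-24507136, plus strand: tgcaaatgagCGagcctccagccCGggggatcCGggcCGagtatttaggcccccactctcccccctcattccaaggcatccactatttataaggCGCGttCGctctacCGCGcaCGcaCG
Over the 300 bases, Zfp428 held 19 CG dinucleotides and Zfp566 held 14. The median over all members was 15.5, against 8 over all genes and 5 over the 8 cluster members.

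In BAZ2A dTAM, 42 members rose and 12 fell at an adjusted p under 0.05 (limma on log2(RPKM + 0.1), p-values adjusted over all 9000 genes tested), and 144 did not pass. The share of members that rose, 21.2%, was near that of all genes tested, 19.9%, while the share that fell, 6.06%, stood beside 15.9% of all genes. Of the 42 that rose, 7 were below the limit of 0.1 RPKM in BAZ2A wt and were members only through their BAZ2A dTAM level (Zfp28, Zfp148, Zfp324, Zfp612, Zfp719, Zfp882 and Zfp936), so the count of rises rests in part on the limit. Of the 12 that fell, 1 was below it in BAZ2A dTAM, Zfp775. The members had a median of 215 reads per library, against 350 over all genes tested. The median log2 fold change of the members was 0.05, against 0.01 for all genes tested. Above 0 were 123 of the 198, or 62.1%, against 52.8% of all genes tested. Within 0.1 of 0 on the log2 scale lay 88 members, or 44.4%, against 41.0% of all genes tested, and 1 member passed the thresholds that the study applied to genes, an absolute log2 fold change of 0.58 and an unadjusted p under 0.05, against 3.79% of all genes tested. On this scale the added 0.1 RPKM shrinks the change of low genes. With voom on the reads recovered from the RPKM values, 57 members rose, 21 fell and 6 passed the study's thresholds, against 21.9% of all 12657 genes higher, 21.9% lower and 11.8% past the thresholds. In 3 libraries, BAZ2A wt replicate 4 and BAZ2A dTAM replicates 1 and 4, members made up more of the reads than in the other 5. Without these libraries, which were chosen after the data were seen and on the members' own levels, 26 members rose and 20 fell, beside 13.7% and 11% of all genes (989 of 9000).

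On the scale with the added 0.1 RPKM, the member that rose most was Zfp428, a protein with 1 finger motif and no KRAB motif (chr7:24507006-24515682, mm10). Its levels were 0.327, 0.416, 0.398 and 0.326 RPKM in BAZ2A wt and 0.609, 0.687, 0.681 and 0.558 RPKM in BAZ2A dTAM, on 141 to 186 and 239 to 315 reads. The groups did not overlap, and Zfp428 rose with a log2 fold change of 0.65 ± 0.09 (SE; adjusted p = 0.00106). Its mean was 1.73 times as high and its log2 fold change with voom was 0.79, and by both of these Zfp566, described next, rose more. The table's Zfp428 shares 8.93% of its 100-base sequences with another gene model, AC161166.1, on the other strand.

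Zfp566, a KRAB zinc finger gene of chromosome 7 (chr7:30077337-30090527), was at 0.108, 0.105, 0.123 and 0.106 RPKM in BAZ2A wt and at 0.196, 0.215, 0.218 and 0.217 RPKM in BAZ2A dTAM. Every BAZ2A dTAM library lay above every BAZ2A wt library, and the mean was 1.91 times as high, a log2 fold change of 0.57 ± 0.04 on the scale with the added 0.1 RPKM (adjusted p = 9.24e-05) and 0.94 with voom. Zfp229, a KRAB zinc finger gene with 16 finger motifs (chr17:21730795-21769342), was at 0.364, 0.351, 0.369 and 0.418 RPKM in BAZ2A wt and at 0.633, 0.492, 0.528 and 0.617 RPKM in BAZ2A dTAM. It rose by 0.49 ± 0.08 (SE of the log2 fold change; adjusted p = 0.0026), and within BAZ2A dTAM replicates 1 and 4 were higher than replicates 2 and 3. Zfp740, which has 2 finger motifs and no KRAB motif (chr15:102203648-102215606), had tight values, 1.72, 1.68, 1.68 and 1.69 RPKM in BAZ2A wt against 2.19, 2.30, 2.41 and 2.33 RPKM in BAZ2A dTAM. It rose by 0.42 ± 0.03 (adjusted p = 9.06e-05) on about 1203 reads per library. Zfp566 and Zfp740 overlap other gene models on the opposite strand, Gm44872 and Csad, Zfp566 also overlaps Gm26920 on its own strand and shares 13.0% of its 100-base sequences with it, and whether the counting used strand is not given in the sources used here.

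The other members with the largest rises and no overlap between the groups were Zfp84, Zfp628, Zfp599, Zfp747, Zfp574 and Zfp513, with log2 fold changes of 0.35 to 0.41. Zfp446 rose by 0.39, but its groups overlapped, with BAZ2A wt replicate 3 at 0.444 RPKM and BAZ2A dTAM replicate 2 at 0.421 RPKM. Of these, Zfp628, Zfp446 and Zfp747 were the least firm: leaving out 1 library at a time raised the adjusted p above 0.05 in 3, 6 and 4 of 8 cases. Zfp747 rested in part on BAZ2A dTAM replicate 2, at 0.630 RPKM against 0.417 to 0.434 RPKM in the other 3. Of the 42 members that rose, 32 stayed under an adjusted p of 0.05 whichever library was left out, and of the 12 that fell, 8 did. The same share over all genes tested is not given here, so these counts describe single calls and not the members as a set.

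**Figure D1:**
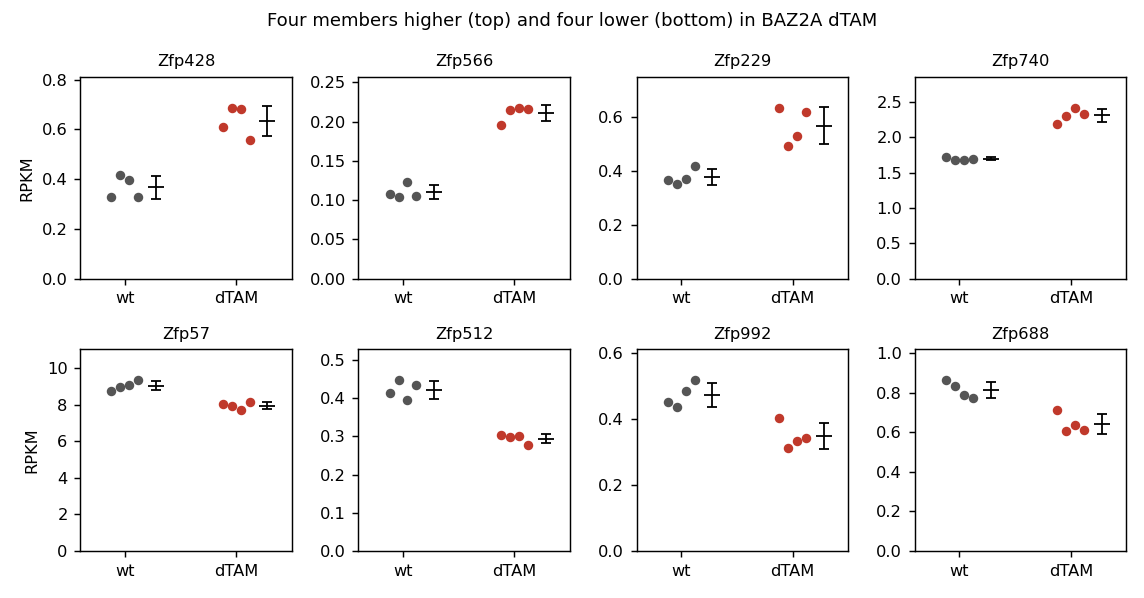
Levels in RPKM (linear axis from 0) of 8 members in each of the 4 BAZ2A wt libraries (grey points) and the 4 BAZ2A dTAM libraries (red points), with the mean and SD beside the points. The upper row shows Zfp428, Zfp566, Zfp229 and Zfp740, in which every BAZ2A dTAM library is above every BAZ2A wt library, and the lower row Zfp57, Zfp512, Zfp992 and Zfp688, in which every one is below.

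Zfp512 fell most among the called members. It has 3 finger motifs and no KRAB motif (chr5:31452431-31481754). Its levels were 0.412, 0.447, 0.395 and 0.435 RPKM in BAZ2A wt and 0.303, 0.298, 0.300 and 0.277 RPKM in BAZ2A dTAM. The groups did not overlap and the log2 fold change was -0.40 ± 0.04 (adjusted p = 0.000271). Next came Zfp992 of the chromosome 4 cluster, with a log2 fold change of -0.35 ± 0.07 (adjusted p = 0.00655), followed by the neighbours Zfp688 and Zfp689 on chromosome 7. Zfp688 was at 0.863, 0.833, 0.788 and 0.775 RPKM in BAZ2A wt and at 0.713, 0.604, 0.635 and 0.611 RPKM in BAZ2A dTAM, a log2 fold change of -0.31 ± 0.05 (adjusted p = 0.00384). Zfp689 changed by -0.27 with an adjusted p of 0.0443, which went above 0.05 in 7 of 8 cases when 1 library was left out.

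Among the rest that fell, Zfp59 and Zfp414 changed by -0.27 and -0.23, and both share sequence with other gene models, 28.5% and 22.6% of their 100-base sequences. Zfp775, Zfp710 and Zfp511 changed by -0.18, -0.17 and -0.16, all with no overlap between the groups. For Zfp710 the adjusted p went above 0.05 in 5 of 8 cases when 1 library was left out.

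By known role, the clearest change among the guardians of imprints was in Zfp57, which binds the methylated allele of imprinting control regions and keeps it methylated. Zfp57 had the highest RPKM of all members, with 8.75, 8.98, 9.11 and 9.35 RPKM in BAZ2A wt and 8.04, 7.93, 7.71 and 8.13 RPKM in BAZ2A dTAM. The means were 9.04 ± 0.25 and 7.95 ± 0.18 RPKM (SD, n = 4), the groups did not overlap, and Zfp57 fell to 0.879 of its BAZ2A wt level (log2 fold change -0.18 ± 0.03, limma adjusted p = 0.00204). Leaving out any 1 library moved this log2 fold change only between -0.20 and -0.17. Zfp445, which acts with Zfp57 at imprints, did not pass: it was at 1.11 ± 0.08 RPKM in BAZ2A wt and 1.03 ± 0.19 RPKM in BAZ2A dTAM, with a 95% interval of the log2 difference from -0.38 to 0.16. In BAZ2A dTAM it was 1.24 and 1.14 RPKM in replicates 1 and 4 and 0.822 and 0.937 RPKM in replicates 2 and 3. Zfp568, the repressor of a placental Igf2 promoter, was at 1.10, 1.04, 1.10 and 1.10 RPKM in BAZ2A wt and at 1.20, 1.20, 1.19 and 1.17 RPKM in BAZ2A dTAM. Its values did not overlap and it rose by 0.12 ± 0.03 on the log2 scale (adjusted p = 0.00916).

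Of the 8 listed silencers of retroelements, 7 were members, 1 rose, none fell and 6 did not pass, beside 19.9% of all genes higher and 15.9% lower. With voom Zfp638 also fell, by 0.27 (adjusted p = 0.0338). Zfp708 was listed at 0 in every library. Zfp809, which starts the silencing of murine leukaemia type proviruses in early embryonic cells, was at 0.421, 0.434, 0.446 and 0.446 RPKM in BAZ2A wt and at 0.558, 0.528, 0.506 and 0.578 RPKM in BAZ2A dTAM. It rose by 0.26 ± 0.04 on the log2 scale (adjusted p = 0.00197) and stayed under 0.05 whichever library was left out. The other six members of the list had log2 fold changes between -0.16 and 0.07.

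Of the 23 listed ESC and chromatin regulators, 16 were members, of which 5 rose, none fell and 11 did not pass, beside the same 19.9% and 15.9% of all genes. With voom 8 of the 16 rose and none fell, the added ones being Zfp335, Zfp687 and Zfp131, beside 21.9% of all genes in each direction. The 5 were Zfp207, a spindle protein also needed for ESC identity, at 1.77 ± 0.03 RPKM in BAZ2A wt and 2.11 ± 0.07 RPKM in BAZ2A dTAM, Zfp217, a partner of co-repressor complexes, at 0.484 ± 0.023 and 0.591 ± 0.023 RPKM, Zfp706, a factor needed for the exit of ESCs from self-renewal, at 2.97 ± 0.02 and 3.31 ± 0.19 RPKM, Zfp592 and Zfp148. Their log2 fold changes were 0.25, 0.24, 0.15, 0.20 and 0.18 in that order. Zfp148, with a BAZ2A wt mean of 0.098 RPKM, was a member only through its BAZ2A dTAM level, so its count among the 5 rests in part on the limit. Zfp706 was the least firm of the 5, with an adjusted p above 0.05 in 6 of 8 cases when 1 library was left out. Zfp281, a regulator of pluripotency and the third highest member by RPKM, was at 3.23 ± 0.15 and 3.14 ± 0.11 RPKM, with a 95% interval of the log2 difference from -0.13 to 0.05. The 8 listed genes with a role in RNA, the ribosome or ubiquitin were all members and none of them passed, with log2 fold changes from -0.02 to 0.21. At an unadjusted p under 0.05, 1 of the 8 was higher, beside 2252 of all 9000 genes, and with voom Zfp91 rose, by 0.13. The largest of these, Zfp830, had 1.63 RPKM in BAZ2A wt replicate 4 against 2.30 to 2.52 RPKM in the other 3. Zfp553, the second highest member, was at 3.77 ± 0.23 and 3.87 ± 0.16 RPKM and did not pass.

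KRAB zinc finger proteins act through a shared co-repressor. Of the 18 listed genes of that machinery found in the table, 16 were tested, of which 10 rose and none fell, beside 19.9% and 15.9% of all genes tested. Trim28, the scaffold, was at 6.80 ± 0.30 RPKM in BAZ2A wt and 7.77 ± 0.40 RPKM in BAZ2A dTAM (log2 fold change 0.19, adjusted p = 0.0148). Setdb1, which deposits H3K9me3, was at 0.967 ± 0.019 and 1.13 ± 0.04 RPKM (0.20, adjusted p = 0.00204). Dnmt3b, a DNA methyltransferase, had the largest log2 fold change of the list, from 0.239 ± 0.010 to 0.393 ± 0.018 RPKM (0.54, adjusted p = 6.06e-05), while that of Dnmt1 was -0.03 and it did not pass. Atrx was at 0.375 ± 0.063 and 0.303 ± 0.085 RPKM and did not pass, with a log2 fold change of -0.25. With voom 9 of the 16 rose, Cbx3 no longer among them, and Atrx fell (-0.34, adjusted p = 0.0312).

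Members with the KRAB motif and members without it were called in similar numbers. Of 110 with the motif, 22 rose and 5 fell, with a median log2 fold change of 0.04. Of 87 without it, 20 rose and 7 fell, with a median of 0.06. By the number of fingers, 8 rose and 6 fell of the 42 members with 1 to 5 finger motifs, 22 rose and 5 fell of the 93 with 6 to 12, and 12 rose and 1 fell of the 58 with more than 12. The counts stand beside 19.9% of all genes higher and 15.9% lower, and the difference between them was not tested.

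By chromosome, 62 of the 198 members lay on chromosome 7, where 17 rose and 5 fell, with a median log2 fold change of 0.08. The other 685 genes tested there had a median of 0.04, and 157 rose and 105 fell. Chromosome 4 held 16 members, of which none rose and 1 fell. Their median was -0.12, against 0.03 for the 603 other genes tested on chromosome 4, of which 120 rose and 84 fell. Chromosome 17 had 22 members with 2 risen and 2 fallen, beside 81 and 82 of its 454 other genes. Chromosome 9 had 10 with 4 risen and none fallen, beside 99 and 86 of 468 other genes. On chromosomes 8, 13 and 15, with 12, 11 and 9 members, 4, 1 and 4 rose and none fell. Of the other genes, 77 rose and 96 fell of 485 on chromosome 8, 58 and 52 of 318 on chromosome 13, and 69 and 62 of 337 on chromosome 15.

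**Figure D2:**
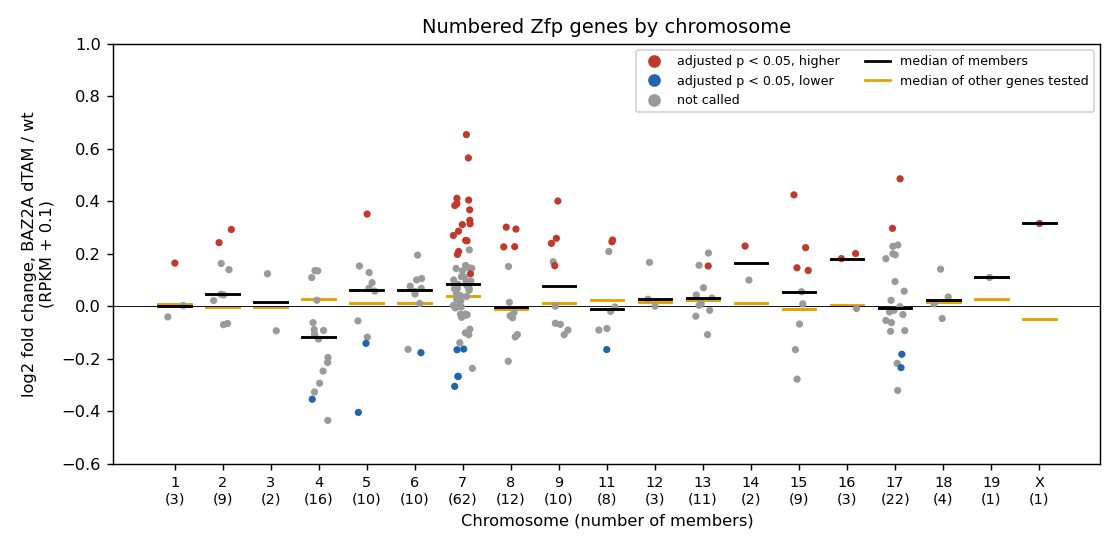
Log2 fold change between BAZ2A dTAM and BAZ2A wt, on RPKM + 0.1, of the 198 members by chromosome, with 1 point per gene, red for higher and blue for lower at an adjusted p under 0.05 and grey for the rest. Black bars are the medians of the members and orange bars those of the other genes tested, and on chromosome 4 the black bar, at -0.12, is below the orange one, at 0.03.

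Joining numbered Zfp genes less than 500 kb apart gave 17 clusters with at least 4 such genes and 3 members, named here by chromosome and order along it. They held 100 of the members, of which 22 rose and 6 fell. The other 98 lay outside, of which 20 rose and 6 fell, and over all genes tested 19.9% rose and 15.9% fell. In 15 of the 17 clusters the median log2 fold change was above 0. The exceptions were cluster 17.2 (chr17:32771236-33631779), with 9 members and a median of -0.002, where Zfp871 rose by 0.30 and Zfp414 fell, and cluster 4.

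Among the clusters with at least 5 members, the highest medians were on chromosome 7. Cluster 7.7 (chr7:29768552-30169750) had 9 members, 7 of them with the KRAB motif, and a median of 0.14. Of these 4 rose, Zfp566, Zfp84, Zfp260 and Zfp568, and none fell. Cluster 7.5 (chr7:24081924-25227507) had 7 members and a median of 0.14, with 3 that rose, Zfp428, Zfp574 and Zfp61. Cluster 7.4 (chr7:12415153-12985714) had 5 members and a median of 0.16, with Zfp446 and Zfp324 risen and Zfp110, the member with most reads, at a log2 fold change of -0.10 that did not pass. Without the 3 libraries named above this median was 0.02, but they were chosen on the members' own levels, so that value is not an independent check. All 5 numbered Zfp genes of cluster 7.3 (chr7:6977246-7209998) were members with log2 fold changes above 0, of which Zfp954 passed at 0.31.

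Elsewhere a cluster held changes in opposite directions. In cluster 7.9 (chr7:127233061-127885996), Zfp747 and Zfp668 rose by 0.38 and 0.25 while Zfp688 and Zfp689, which lie between them, fell. In cluster 7.6 (chr7:27731389-28380253), Zfp59 fell and the other four had log2 fold changes between 0.06 and 0.10. In cluster 17.1 (chr17:21008941-23599487), which has 8 members among 23 genes, Zfp229 was the only one to pass, and the others ran from -0.32 to 0.23. With voom Zfp760 and Zfp945 of this cluster also passed, both lower. Cluster 9 (chr9:20345136-20605409) had 3 members, all at 0.15 to 0.24, of which Zfp266 and Zfp846 rose. Cluster 13 (chr13:66669928-67827002) had only 4 members among 20 listed genes, none of which passed. Its log2 fold changes were -0.02 to 0.07, and the sign of its deepest member, Zfp748, changed with the library left out. The largest changes were those of Zfp628 in cluster 7.1 and Zfp868 in cluster 8.1, which rose by 0.40 and 0.23. In cluster 7.2, cluster 7.8, which had 8 members and a median of 0.05, and cluster 8.2, they were those of Zfp28, Zfp936 and Zfp882, at 0.29, 0.33 and 0.30. These 3 genes were members only through their BAZ2A dTAM level. In cluster 6, Zfp775 fell, by 0.18, and Zfp212 was at 0.19 and did not pass, though it rose with voom, by 0.26.

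**Figure D3:**
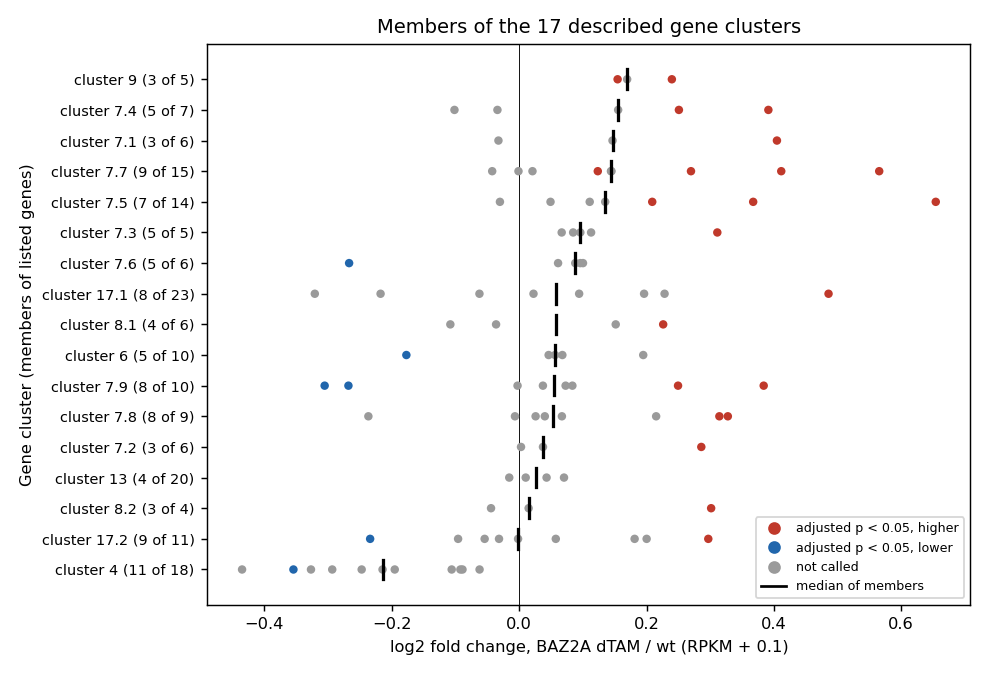
Log2 fold change between BAZ2A dTAM and BAZ2A wt, on RPKM + 0.1, of the members of the 17 gene clusters, ordered by their medians (black bars), with 1 point per gene, red for higher and blue for lower at an adjusted p under 0.05 and grey for the rest. The 11 members of cluster 4, in the lowest line, all lie below 0, between -0.44 and -0.06.

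Cluster 4 spans 2.34 Mb (chr4:145510759-147848366) and holds 18 numbered Zfp genes, of which 11 were members, all with the KRAB motif. All 11 had a log2 fold change below 0 in BAZ2A dTAM, from -0.44 for Zfp990 to -0.06 for Zfp979, with a median of -0.21 against 0.01 over all genes tested. Zfp992 alone passed the test, beside 15.9% of all genes that were lower. At an unadjusted p under 0.05, 5 of the 11 were lower, beside 20.8% of all genes. With voom 6 of the 11 fell, Zfp990, Zfp992, Zfp981, Zfp988, Zfp534 and Zfp984, beside 21.9% of all genes, with a median of -0.35. Without BAZ2A dTAM replicate 1 alone 4 fell, Zfp990, Zfp992, Zfp981 and Zfp984, beside 14.7% of all genes. Leaving out any other single library called Zfp992 alone. Without the 3 libraries named above, which were chosen on the members' own levels, 8 fell, beside 11% of all genes. Without BAZ2A dTAM replicate 2, Zfp979 turned to 0.02, and without BAZ2A wt replicate 4, Zfp978 turned to 0.001. In the other 6 cases of leaving out 1 library all 11 stayed below 0. The cluster's median ranged from -0.28 to -0.17.

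The libraries of a group differed in these genes. Zfp990, the deepest of the cluster with 2152 reads per library (chr4:145510759-145539188), was at 1.63, 1.58, 1.65 and 2.09 RPKM in BAZ2A wt and at 1.59, 1.04, 1.01 and 1.45 RPKM in BAZ2A dTAM. BAZ2A dTAM replicate 1 overlapped with BAZ2A wt, and replicates 2 and 3 lay well below it. The log2 fold change was -0.44 ± 0.16 with a limma adjusted p of 0.0692, and without BAZ2A dTAM replicate 1 the adjusted p was 0.0301. In the other 7 of 8 cases of leaving out 1 library it was above 0.05, up to 0.152. Zfp981 likewise had its highest BAZ2A wt level in replicate 4 and its highest BAZ2A dTAM level in replicate 1, with 0.223, 0.216, 0.225 and 0.295 RPKM in BAZ2A wt and 0.233, 0.130, 0.131 and 0.201 RPKM in BAZ2A dTAM. Zfp992 (chr4:146449023-146470292) did not overlap, with 0.450, 0.435, 0.484 and 0.517 RPKM against 0.404, 0.312, 0.333 and 0.342 RPKM.

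As a group, all 11 members were above their group mean in BAZ2A wt replicate 4 and in BAZ2A dTAM replicate 1, and 10 of 11 in BAZ2A dTAM replicate 4. In BAZ2A wt replicate 2 and BAZ2A dTAM replicates 2 and 3 none was. The summed reads of the 11 were 882, 840, 866 and 1102 per 1000000 reads in BAZ2A wt and 915, 591, 602 and 820 in BAZ2A dTAM, so the groups overlapped. Their transcripts are also alike: a median of 28.6% of their 100-base sequences, and 67.7% in Zfp600, occur in other genes, so the levels of single copies are uncertain. How the study's processing treated reads that match several genes is not given in the sources used here.

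**Figure D4:**
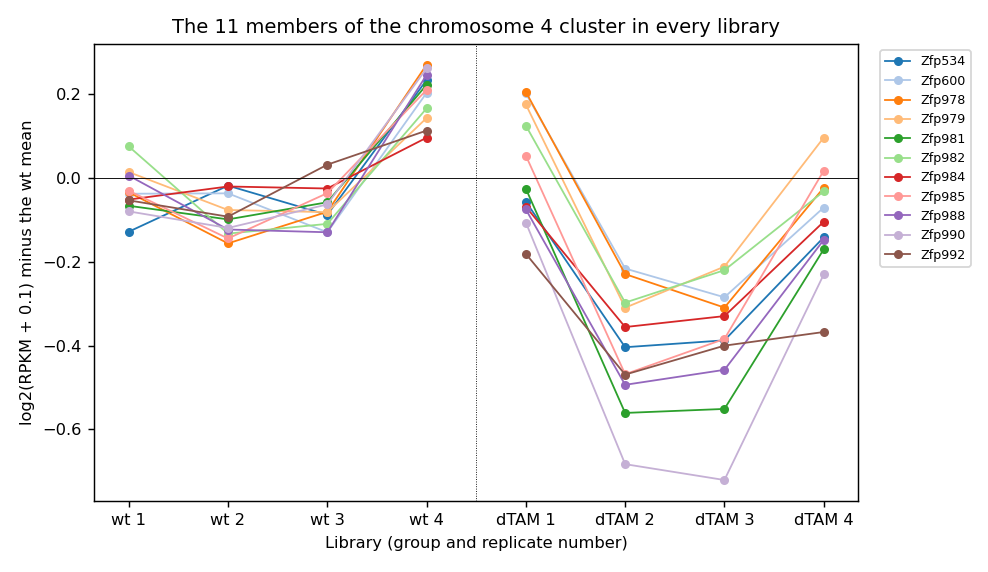
Level of each of the 11 members of cluster 4 in every library, as log2(RPKM + 0.1) minus the gene's mean over the 4 BAZ2A wt libraries, with 1 coloured line per gene and the groups parted by a dotted line. All 11 genes are at their highest of the BAZ2A wt group in replicate 4, and in BAZ2A dTAM all are lower in replicates 2 and 3 than in replicate 1.

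Of the 7 numbered Zfp genes of cluster 4 below the limit, all had enough reads for voom. Zfp980 and Zfp991 fell by 0.50 and 0.66, Zfp933 rose by 0.65, and the other four had log2 fold changes between -0.44 and -0.20 without passing. Of the 14 genes tested in the interval that are not members, 2 rose and 1 fell, with a median of 0.18. Many of them had few reads. Gm13228, named because it was among the 2 that rose, went up by 0.92 on 80.6 reads per library. Gm13147, the gene that fell, changed by -0.24 on 186 reads per library.

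The order of libraries seen in cluster 4 was present, at a smaller size, over the members as a whole. The members took 9830, 9725, 9808 and 10388 per 1000000 reads in BAZ2A wt and 10687, 9663, 9836 and 10465 in BAZ2A dTAM, so the groups overlapped and their means, 9938 ± 304 and 10163 ± 491 (SD, n = 4), differed by less than the spread. In BAZ2A wt replicate 4 and BAZ2A dTAM replicates 1 and 4, 64.1%, 65.2% and 63.6% of the members were above their group mean, against 42.3%, 45.7% and 47.6% of the other genes tested. In the other 5 libraries it was 30.8% to 44.4% of the members and 52.0% to 55.3% of the other genes. The deviations were larger in members with the KRAB motif, with medians of 0.05, 0.04 and 0.04 in the 3 libraries, against 0.003, 0.02 and 0.01 for members without it. The 11 members of cluster 4, all with the KRAB motif, had medians of 0.21, 0.24 and 0.11 there. They were not left out of the members or of the KRAB set, so these values include the cluster itself. The labels name no batch that sets these libraries apart. The share of mitochondrial reads was 2.58%, 2.42% and 2.50% in the 3 libraries and 2.30% to 2.51% in the others, and its part in the result was not tested.

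**Figure D5:**
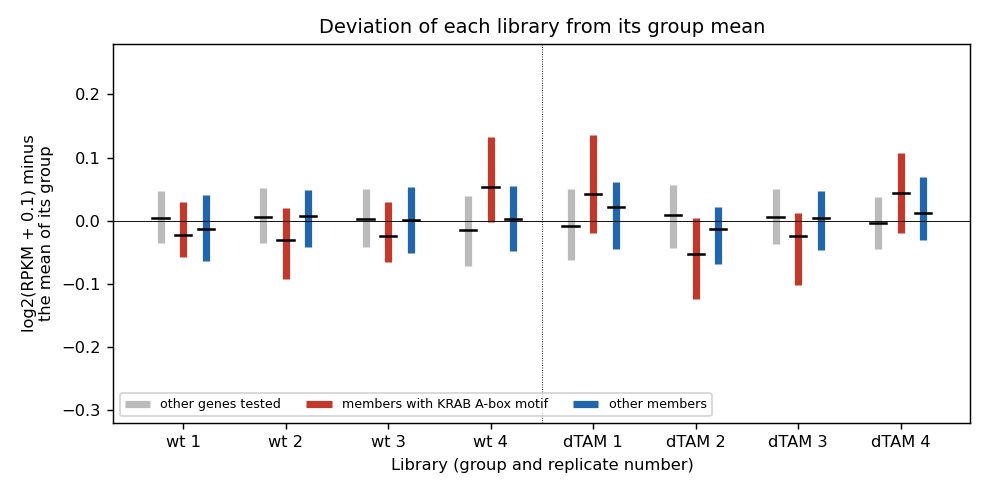
Deviation of each library from the mean of its own group in log2(RPKM + 0.1), with coloured bars from the 25th to the 75th percentile over genes and black marks at the median, for the other genes tested (grey), the members with a KRAB A-box motif (red) and the other members (blue). The red medians are above 0 in BAZ2A wt replicate 4 and BAZ2A dTAM replicates 1 and 4 and below 0 in the other 5 libraries.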

How the data were processed

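RNA sequencing of 8 libraries (polyA-selected, TruSeq stranded mRNA) was taken from the deposited table of RPKM values. Per the labels and the study's methods, the authors trimmed the reads with Trimmomatic, aligned them with STAR to mm10/GRCm38 and summed exon coverage. The values show that the deposited RPKM were divided by the genomic span of each gene, so levels of genes with long introns are understated. The annotation release, strand setting and treatment of multiply matching reads are not given in the sources used here. Repeated symbols (231) were reduced to 1 row. Whole reads were recovered from the low RPKM values: 99.5% to 99.6% of values above 0 in each library lay within 0.05 of a whole number. Members, lists and clusters were chosen with earlier results of these data known.

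The main test was limma 3.58.1 (R 4.3.3) with a trend on log2(RPKM + 0.1), over the 9000 genes that averaged 0.1 RPKM or more, with Benjamini-Hochberg adjustment over all of them. Alternatives were pseudocounts of 0.01 and 1, no filter, a limit of 1 RPKM in place of 0.1, median-ratio and quantile scaling, no trend, a robust fit, a replicate block, voom on genes with at least 10 recovered reads per library, each library left out, and cluster gaps of 200 and 1000 kb. On simulated data, 94.3% of 193 genes changed by 1 on the log2 scale were recovered, with a mean size of 0.81 because of the pseudocount. Of the unchanged genes, 9 were called. The simulated libraries of a group differed little (dispersion 0.001), and a change of 1 is larger than any member's in this test. The recovery therefore does not say how many changes of the members' size would be found.

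Genes were named by a rule: the functional lists, the 10 largest called changes in each direction without overlap and with at least 20 reads, in each cluster the largest change and the deepest gene, the 5 highest RPKM and the 3 genes on either side of the limit. Zfp446 was named by the cluster part of the rule. Other genes named within a cluster were chosen after their values were seen. KRAB motifs and fingers (C2H2, with 2 to 4, 12 and 3 to 5 residues between) were counted in coding sequences of GENCODE vM21, the sequences of 100 bases in its transcripts. Member coordinates are those of the table, of which 182 of 198 equal that annotation. Overlapping genes on either strand were present for 85 members. Promoters came from RefSeq GRCm38.p6.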

Additional observations from a re-analysis of the deposited data

Results flagged for a closer look

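In 120 groups of 4 libraries examined (60 named members in each line), 11 had a library whose gap to its nearest neighbour exceeded Dixon's 95% critical value, and chance flags about 1 in 20. BAZ2A wt replicate 4 was the library in 4 of them, with Zfp513 at 0.968 RPKM (the others 1.14 to 1.17), Zfp930 at 0.323 (0.228 to 0.241), Zfp981 at 0.295 (0.216 to 0.225) and Zfp990 at 2.09 (1.58 to 1.65). BAZ2A dTAM replicate 2 was the library for Zfp264 at 0.416 RPKM (0.497 to 0.506), Zfp747 at 0.630 (0.417 to 0.434) and Zfp865 at 0.244 (0.193 to 0.198). The remaining ones were Zfp512 in BAZ2A dTAM replicate 4 at 0.277 RPKM, Zfp566 in BAZ2A dTAM replicate 1 at 0.196, Zfp568 in BAZ2A wt replicate 2 at 1.04 and Zfp740 in BAZ2A wt replicate 1 at 1.72. For these last ones the groups stayed apart with the library included.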

How the results depend on the processing

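The members had a median of 215 reads per library, and the pseudocount decides how much of a low gene's change is kept. The members that rose and fell were 42 and 12 of 198. At a mean of at least 1 RPKM they became 8 and 3 of the 20 members tested there, which are not smaller shares. The share of all genes called at that limit is not given here. With voom 21 fell, beside 21.9% of all genes. Without BAZ2A wt replicate 4 and BAZ2A dTAM replicates 1 and 4 (added after seeing the data) 26 rose and 20 fell, beside 13.7% and 11% of all genes. Leaving out 1 library gave 35 to 43 risen and 9 to 16 fallen. Without BAZ2A dTAM replicate 1 it was 43 and 16, beside 19.2% and 14.7% of all genes, and for the other libraries the share of all genes is not given here. Past the study's thresholds, 1 member higher became 2 at a pseudocount of 0.01, 0 at a pseudocount of 1 and at the mean of 1 RPKM, and 6 with voom. It was 1 to 2 with 1 library left out, and with 3 left out 1 member, against 0, was lower. The members' median log2 fold change of 0.05 became 0.013 at a pseudocount of 1, 0.096 at the mean of 1 RPKM and 0.073 with voom. Cluster 4's median became -0.44 at the mean of 1 RPKM, where Zfp990 alone is left. Signs turned for members near 0: Zfp444 to -0.000360 at a pseudocount of 1, -0.00620 with median-ratio scaling, -0.0128 with quantile normalization, -0.065 without the 3 libraries and -0.0844 to 0.0443 with 1 library left out, Zfp65 to -0.021 without the 3 libraries, Zfp748 to between -0.0555 and 0.0569 with 1 left out, Zfp978 to between -0.19 and 0.0012, and Zfp979 to between -0.14 and 0.020. The cause was not tested. Same-numbered replicates deviated together only weakly, with correlations of 0.024 to 0.062, against -0.061 to 0.028 for the other pairs. Not every library correlated best with its own number, and values this small cannot decide whether the numbers pair the libraries. With the replicate block 37 members rose and 11 fell, beside 17.3% and 13.8% of all genes, and 43 of the 54 calls were shared. It called 3 members of cluster 4 lower, Zfp990, Zfp992 and Zfp988. The scalings moved the median of all genes by less than 0.03.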
